A study of Rattus norvegicus with 20 samples.

Results

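Cholesterol is built from acetyl-CoA through mevalonate, isoprenoids, squalene and lanosterol. The enzymes of that route are largely transcribed under the control of SREBP-2, a membrane-bound transcription factor made by Srebf2. When sterols are plentiful, Insig1 holds SREBP-2 and its escort Scap in the endoplasmic reticulum; when sterols are scarce the factor is released, cut and sent to the nucleus, where it raises the synthesis genes and Insig1 itself. Cyclosporine A and tacrolimus are immunosuppressants that inhibit the phosphatase calcineurin, through cyclophilin and FKBP12 respectively, and both are known for kidney toxicity.

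The 8 genes described here were chosen by symbol: the synthesis enzymes Hmgcs1, Idi1, Fdft1, Sqle, Lss and Dhcr7, and the sterol sensing genes Srebf2 and Insig1. They are 8 of 32907 genes listed in either of the deposited tables, and all 8 were found by symbol in both and passed the filter on low values in both. The 8 genes and the gene lists used below were chosen with earlier results of these data known. Expression was measured by bulk RNA sequencing of whole kidneys from 20 wild-type male Wistar rats aged 10 to 12 weeks, treated for 28 days by osmotic minipump under the skin. One table holds saline vehicle (n = 4) and cyclosporine A (4 rats, with a target plasma trough that the submitters write as 3 mg/ml, a unit not checked here). The other holds a vehicle of 25% DMSO and 75% PEG500 (DMSO/PEG below, n = 6) and tacrolimus (6 rats, aimed at a plasma trough of 3.5 ng/ml). The vehicles differ, and the tables were scaled separately, so each drug was compared with its own vehicle. Each label gives a separate numbered replicate, and p-values measure the spread between these libraries. In whole-kidney RNA, fewer cells of a type and less RNA per cell cannot be told apart.

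Assigned fragments (sequenced read pairs counted to a gene) ran from 30468799 to 34308987 in libraries of the table with cyclosporine A, and from 31670202 to 39358485 in libraries of the table with tacrolimus. The share of fragments on mitochondrial genes was 49.7% to 68.6% in the saline libraries and 80.2% to 90.8% with cyclosporine A, with no overlap (exact 2-sided permutation p = 0.0286, the smallest that 4 against 4 allows). In the tacrolimus table it was 10.5% to 13.7% in vehicle and 10.8% to 15.9% with the drug (exact permutation p = 0.606). Values are FPKM, fragments scaled to gene length and library depth. Because the cyclosporine A table counts mitochondrial fragments in that depth, its values are given as deposited and also rescaled, meaning divided by a factor per library, the median over genes of the ratio to a typical library. Proximal tubule markers stood high in every group. Their summed FPKM over 8 genes was 3672 to 4295 in DMSO/PEG kidneys and 3734 to 4188 with tacrolimus. On the rescaled scale it was 499 to 729 in saline and 257 to 600 with cyclosporine A. There, 6 of 8 had a change below 0 (50.1% of all genes did). By limma at an adjusted p under 0.05, 1 of 8 rose and 0 fell (0.609% of all genes changed in either direction). Distal convoluted tubule markers had a lower sum with both drugs, without overlap. It was 285 to 360 in DMSO/PEG kidneys and 48.0 to 75.9 with tacrolimus, and 52.9 to 76.9 in saline and 24.3 to 33.8 with rescaled cyclosporine A. By the same test, 4 of 4 distal markers tested fell with tacrolimus (0.284% of all genes did) and 1 of 4 with rescaled cyclosporine A (0.282%), while Pvalb was listed at 0 throughout. The sum of 5 thick ascending limb markers was 337 to 598 in saline and 150 to 272 with rescaled cyclosporine A, where 1 of 5 fell (0.282% of all genes did). In the tacrolimus table this sum overlapped (2208 to 2710 and 1794 to 2746). The part of these markers in the results on sterol genes was not tested.

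The 2 start-site regions shown next belong to the pair of genes whose levels moved most closely together in the tacrolimus table, Hmgcs1 and Insig1. They are RefSeq sequences of the GRCr8 build, 300 bases long, from 250 bases before to 50 bases after the start site, read 5′ to 3′ along the gene. Hmgcs1 lies at chr2:53382054-53382353 on the plus strand and Insig1 at chr4:8057720-8058019 on the minus strand. Capitals mark CCAAT, the box bound by NF-Y, and GGGCGG, the GC box bound by Sp1, on either strand (ATTGG and CCGCCC on the other).
Hmgcs1: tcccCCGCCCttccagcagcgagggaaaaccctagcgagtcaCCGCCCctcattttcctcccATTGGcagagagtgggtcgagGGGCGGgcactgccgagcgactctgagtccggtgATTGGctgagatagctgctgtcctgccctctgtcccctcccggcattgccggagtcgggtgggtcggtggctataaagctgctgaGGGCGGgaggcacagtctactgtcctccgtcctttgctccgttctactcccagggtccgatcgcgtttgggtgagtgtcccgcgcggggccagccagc
Insig1: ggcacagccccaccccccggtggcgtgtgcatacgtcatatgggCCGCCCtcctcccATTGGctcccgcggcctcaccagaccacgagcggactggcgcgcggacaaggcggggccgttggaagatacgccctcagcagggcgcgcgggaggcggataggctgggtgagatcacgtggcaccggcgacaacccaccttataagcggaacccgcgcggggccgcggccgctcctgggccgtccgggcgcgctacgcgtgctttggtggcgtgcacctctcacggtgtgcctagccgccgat

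NF-Y and Sp1 are known partners of SREBP proteins at sterol-regulated promoters. Of the 8 genes, 6 had such a region in the RefSeq table (Hmgcs1, Idi1, Lss, Dhcr7, Srebf2 and Insig1). CCAAT was present in 5 of the 6, all but Dhcr7, and in 37.5% of the 33469 rat regions of the same length. GGGCGG was present in 5 of the 6, all but Idi1, and in 33.1% of all regions. Hmgcs1 held 2 CCAAT and 4 GGGCGG matches, and Srebf2 held 1 and 5. The E-box CACGTG, left in lower case in the Insig1 sequence, was in 1 of the 6 and in 6.42% of all regions. A 9-letter form of the sterol regulatory element, TCACNCCAC, was in 0 of the 6 and in 1.12% of all. Each motif was searched on its own, on both strands, and a match is a run of letters, not a tested site.

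The genes sit on separate chromosomes apart from Sqle and Srebf2. In the deposited coordinates (rn6 per the submitters' processing notes) Hmgcs1 is at chr2:52431601-52445055, Idi1 at chr17:57976268-57984036, Fdft1 at chr15:46339249-46367302 and Sqle at chr7:99609191-99624732. Lss is at chr20:12842884-12870497, Dhcr7 at chr1:217018916-217034904, Srebf2 at chr7:123381077-123438603 and Insig1 at chr4:342302-350515, there on the plus strand. Between 680 and 6024 fragments stood behind each value in the tacrolimus table and between 60 and 2732 in the cyclosporine A table, so that counting error is larger in the latter. The lowest counts there were those of Lss, with 60 to 105 fragments in the cyclosporine A libraries.

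With tacrolimus, none of the 8 genes passed the test (limma on log2(FPKM + 1), Benjamini-Hochberg adjusted p under 0.05), against 0.303% of the 15493 genes tested (47 genes), and voom on the recovered fragments also called 0 of 8. At an unadjusted p under 0.05 there were 2 of 8, Fdft1 above and Dhcr7 below its vehicle level, where the share of all genes was 8.58%. The change was below 0 for 7 of 8 genes, the exception being Fdft1, and below 0 for 50.2% of all genes tested. The median log2 change was -0.16 over the 8 genes and -0.0003 over all genes. Drug and vehicle libraries overlapped for each of the 8, and did not for 0.975% of all genes.

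**Figure D1:**
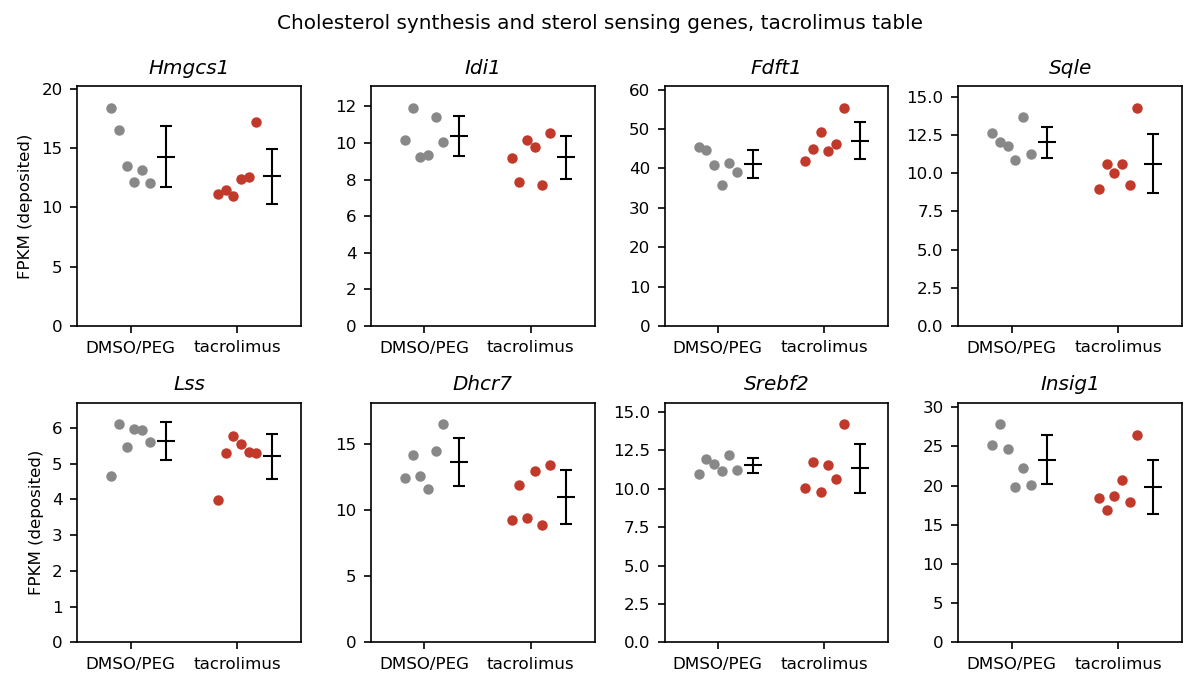
FPKM of each of the 8 genes (vertical axis, from 0) in the 6 DMSO/PEG libraries (grey) and the 6 tacrolimus libraries (red), in replicate order from left to right, with mean and SD beside the points. Each gene's groups overlap, and tacrolimus replicate 6 is the highest tacrolimus library for every gene except Lss.

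Hmgcs1, which condenses acetyl-CoA with acetoacetyl-CoA to HMG-CoA at the head of the pathway, had a lowest, median and highest FPKM of 12.02, 13.3 and 18.4 in DMSO/PEG and 10.9, 11.9 and 17.2 with tacrolimus. All tacrolimus libraries except replicate 6 were at or below 12.5. Its log2 change was -0.17 (SE 0.12, adjusted p = 0.785). Idi1, the isomerase that makes the reactive isoprenoid unit, had 9.21, 10.1 and 11.9 FPKM in vehicle and 7.70, 9.47 and 10.6 with the drug, a log2 change of -0.16 (SE 0.09, adjusted p = 0.689). The upper tacrolimus libraries lay inside the vehicle range and the lowest were under it.

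Fdft1 (squalene synthase) takes the first step committed to sterols and was the most abundant of the 8 per length. Its lowest, median and highest FPKM were 35.8, 41.1 and 45.4 in DMSO/PEG and 41.9, 45.6 and 55.4 with tacrolimus. The lowest 4 vehicle libraries lay below every tacrolimus library, and the highest 3 tacrolimus libraries lay above every vehicle library. The means were 41.2 ± 3.56 and 47.0 ± 4.73 FPKM (SD, n = 6 each), a log2 difference of 0.18 (SE 0.07, adjusted p = 0.458). Fdft1 thus did not pass the adjusted test.

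Within each library, Fdft1 made up 30.7% to 32.4% of the summed FPKM of the 8 genes in DMSO/PEG kidneys and 34.8% to 39.7% with tacrolimus, so the groups did not overlap on this ratio. The ratio is free of library scaling. It was looked at after the Fdft1 values had been seen, and no test is attached to it. Fdft1 FPKM itself overlapped between the groups. The other 7 genes, which make up the rest of the sum, had changes below 0, and this also raises the Fdft1 share. How often such a ratio separates the groups for other sets of genes was not examined. None of the other 7 genes had a share of the sum that separated the groups: Insig1 took 16.0% to 19.1% against 14.0% to 16.8%, and Dhcr7 8.89% to 13.1% against 7.49% to 10.2%. In the other table, the Fdft1 share was 28.4% to 33.8% with saline and 26.7% to 39.4% with cyclosporine A, which overlapped.

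Sqle, the squalene epoxidase and a control point of the pathway, had 10.9, 11.9 and 13.7 FPKM in vehicle and 8.93, 10.3 and 14.3 with tacrolimus (log2 change -0.18, SE 0.10, adjusted p = 0.662). The 5 tacrolimus libraries other than replicate 6 lay below all 6 vehicle libraries, and replicate 6 lay above them all. Lss, which cyclises the epoxide to lanosterol, was the lowest of the 8 per listed length. It had 4.67, 5.78 and 6.10 FPKM in vehicle and 3.98, 5.32 and 5.79 with tacrolimus (log2 change -0.10, SE 0.08, adjusted p = 0.835). In each group, replicate 1 was the lowest Lss library.

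Dhcr7 makes cholesterol from 7-dehydrocholesterol in the last step. It had 11.6, 13.4 and 16.5 FPKM in DMSO/PEG and 8.86, 10.7 and 13.5 with tacrolimus. There were 3 tacrolimus libraries below the vehicle range and 3 within it. The means were 13.7 ± 1.80 and 11.0 ± 2.05 FPKM (SD, n = 6 each), a log2 difference of -0.30 (SE 0.11, adjusted p = 0.446).

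Of the sensing genes, Srebf2 had 11.0, 11.4 and 12.2 FPKM in vehicle and 9.80, 11.1 and 14.2 with tacrolimus, and its log2 change was -0.03 with a 95% interval of -0.20 to 0.14 (adjusted p = 0.958). The spread was wider with the drug (SD 1.61 against 0.483 FPKM). Insig1 had 19.8, 23.4 and 27.8 FPKM in vehicle and 16.9, 18.5 and 26.4 with tacrolimus, a log2 change of -0.23 (SE 0.11, adjusted p = 0.604). The lowest 4 tacrolimus libraries lay below all vehicle libraries, and replicate 6 was within the upper part of the vehicle range.

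Ordered by mean FPKM in DMSO/PEG kidneys, a measure per gene length, the levels ran Fdft1, Insig1, Hmgcs1, Dhcr7, Sqle, Srebf2, Idi1 and Lss. Neighbours were separate in their library ranges at 3 steps, between Fdft1 and Insig1, Insig1 and Hmgcs1, and Idi1 and Lss, and the others overlapped. With tacrolimus the order was Fdft1, Insig1, Hmgcs1, Srebf2, Dhcr7, Sqle, Idi1 and Lss, with separate ranges only at the first and last step.

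With cyclosporine A on rescaled FPKM, 0 of the 8 genes passed the test, against 0.609% of the 13455 genes tested (82 genes), and voom also called 0 of 8. Dhcr7 alone had an unadjusted p under 0.05, with 16.2% of all genes below that value. The change was below 0 for 6 of 8, and for 50.1% of all genes. The median log2 change was -0.14 over the 8 and -0.0003 over all genes. Libraries of the 2 groups overlapped for each of the 8, whereas they did not overlap for 10.9% of all genes.

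**Figure D2:**
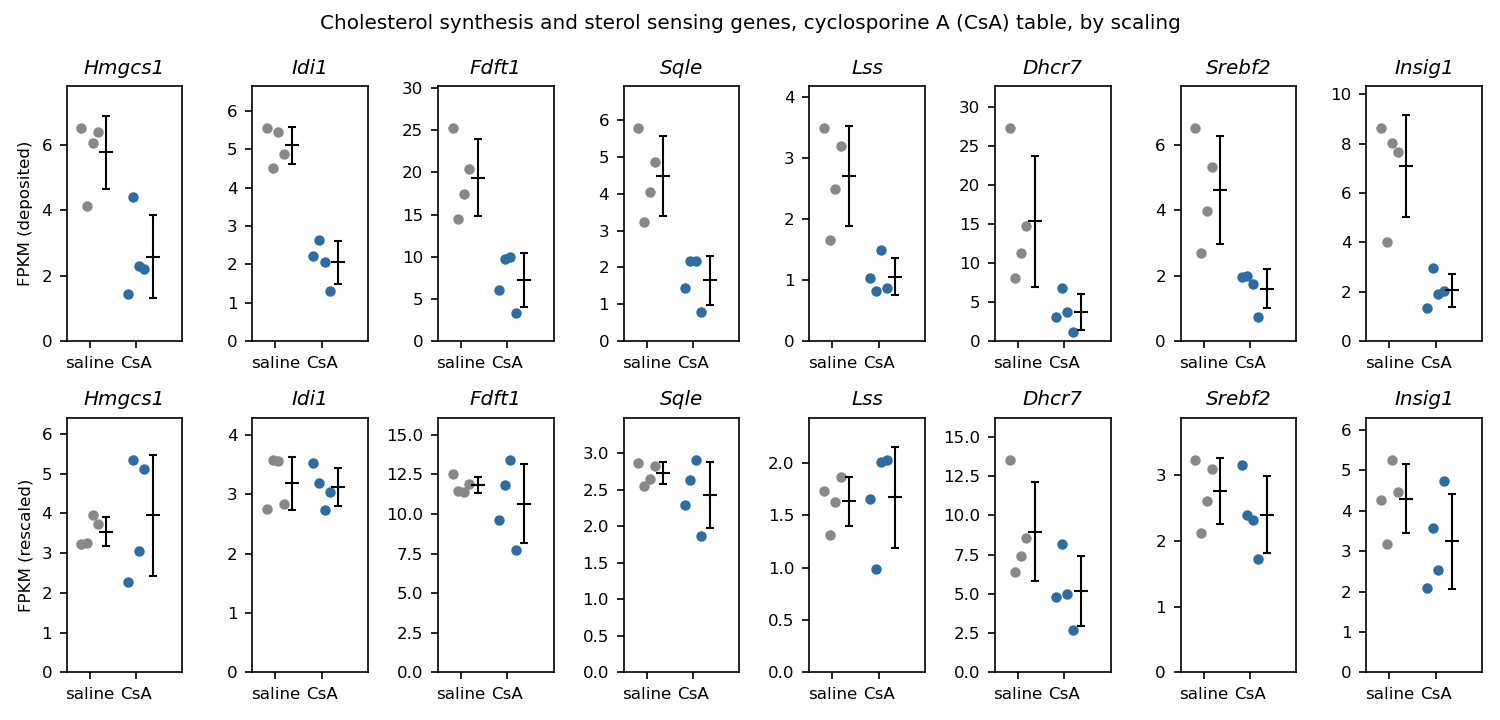
FPKM of each gene in 4 saline (grey) and 4 cyclosporine A (CsA, blue) libraries, as deposited (upper row) and rescaled (lower row), with mean and SD beside the points and axes from 0. On the deposited scale every gene except Hmgcs1 has its CsA libraries below all saline libraries, and on the rescaled scale every gene overlaps.

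In replicate order, rescaled Dhcr7 was 13.5, 6.39, 7.39 and 8.55 FPKM in saline kidneys and 4.81, 8.15, 5.02 and 2.72 with cyclosporine A. Of the drug libraries, 3 lay under the saline range, and saline replicate 1 stood above the other saline libraries. The means were 8.96 ± 3.16 and 5.17 ± 2.24 FPKM (SD, n = 4 each), a log2 difference of -0.71 (SE 0.28, adjusted p = 0.251). Insig1 was 4.27, 3.18, 5.26 and 4.46 with saline and 2.10, 3.59, 2.54 and 4.75 with the drug, a log2 difference of -0.35 (SE 0.21, adjusted p = 0.452). Its lowest 2 libraries were both from treated kidneys, and its highest was from a saline kidney.

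Fdft1 was 12.5, 11.5, 11.4 and 11.9 rescaled FPKM with saline and 9.59, 11.8, 13.4 and 7.72 with cyclosporine A (log2 difference -0.16, SE 0.15, adjusted p = 0.648). The saline libraries were close to each other, and the treated libraries lay on both sides of them. Sqle had the same layout, 2.87, 2.55, 2.65 and 2.83 against 2.29, 2.63, 2.91 and 1.86 (log2 difference -0.13, SE 0.13). Hmgcs1 was 3.23, 3.26, 3.96 and 3.72 with saline and 2.28, 5.34, 3.07 and 5.12 with the drug, a log2 difference of 0.07 (95% interval -0.40 to 0.55). Its treated libraries held both the highest 2 and the lowest 2 values. Idi1 (log2 difference -0.02, 95% interval -0.31 to 0.27), Lss (0.01, -0.36 to 0.37) and Srebf2 (-0.15, -0.52 to 0.21) had intervals that spanned 0.

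As deposited, all 8 genes were called lower with cyclosporine A, and so were 80.9% of the 13455 genes tested. Their log2 changes ran from -0.83 for Lss to -1.82 for Dhcr7, with a median of -1.08 against -0.89 over all genes. For 7 of the 8 the treated libraries lay under all saline libraries, as for 67.9% of all genes. The exception was Hmgcs1, with 6.50, 4.12, 6.05 and 6.40 FPKM in saline kidneys and 1.43, 4.41, 2.29 and 2.20 with the drug, where treated replicate 2 was above saline replicate 2. The mitochondrial share of the libraries moved with this result, and on the rescaled values 0 of 8 were called.

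In the rescaled saline libraries the order of levels was Fdft1, Dhcr7, Insig1, Hmgcs1, Idi1, Srebf2, Sqle and Lss, with separate ranges between Dhcr7 and Insig1 and between Sqle and Lss. In the treated libraries it was Fdft1, Dhcr7, Hmgcs1, Insig1, Idi1, Sqle, Srebf2 and Lss, and all neighbours overlapped. Fdft1 was first and Lss last in all 4 groups of the study. The lengths behind the deposited values differ between the tables for Lss, Dhcr7 and Srebf2: for Lss, 2216 bases gave whole fragments in the cyclosporine A table where 4514 were listed. Levels are therefore not set against each other across tables. The place of a gene within a table depends on its length too. The last place of Lss in the tacrolimus table rests on 4514 bases, and a shorter length would give higher FPKM there.

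Set against each other, the changes with the 2 drugs gave no call for any of the 8 genes (cyclosporine A minus tacrolimus), against 1.61% of 13392 genes tested in both tables (216 genes). No member had an unadjusted p under 0.05 there, where 16% of all genes did. The closest was Fdft1, with a log2 difference between the changes of -0.35 (95% interval -0.71 to 0.01, adjusted p = 0.334). For Dhcr7 it was -0.42 (-1.07 to 0.24), for Insig1 -0.12 (-0.62 to 0.38) and for Hmgcs1 0.24 (-0.28 to 0.76). These intervals leave room for differences of either direction. When the deposited cyclosporine A values were used instead, 8 of 8 were called lower with cyclosporine A than with tacrolimus, as were 74.9% of all 13392 genes. Drug, vehicle and table change together in this comparison and cannot be told apart.

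**Figure D3:**
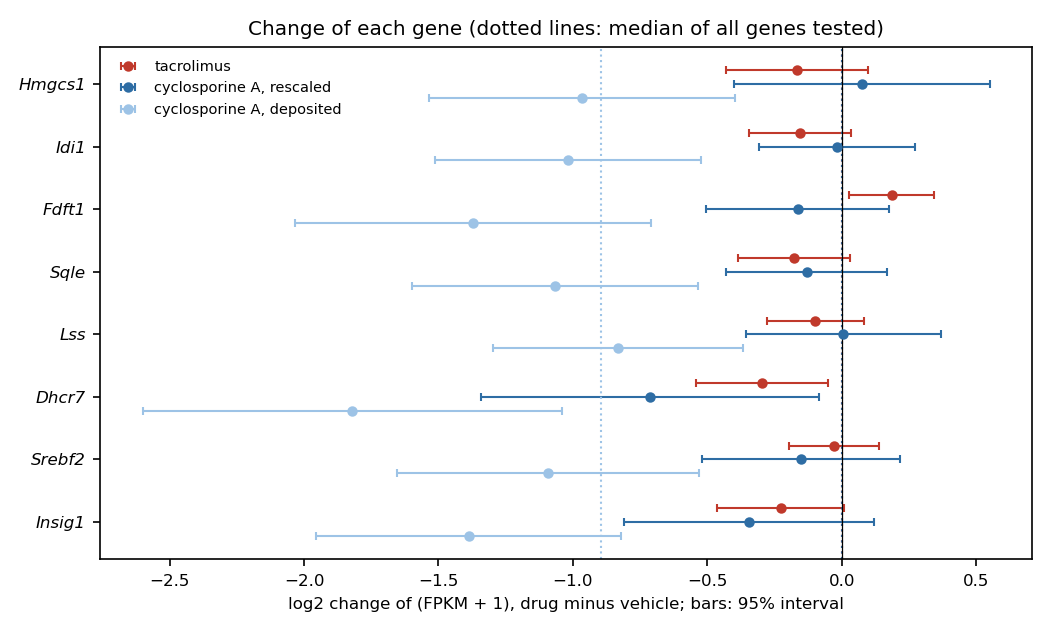
Log2 change of FPKM + 1, drug minus vehicle (horizontal axis), with 95% intervals, for tacrolimus (red), rescaled cyclosporine A (dark blue) and deposited cyclosporine A (light blue), with dotted lines at the median of all genes tested. The deposited changes run from -0.83 to -1.82, and all but that of Lss (-0.83) lie below the median of all genes, -0.89. The other changes run from -0.71 to 0.18.

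In the tacrolimus table the genes varied together from kidney to kidney. Over the 12 libraries the 28 pairs of genes had a median Pearson r of 0.42, and 26 of 28 were above 0. With group means removed the median was 0.53, so the shared variation was also present inside groups. It was 0.37 in the 6 vehicle libraries alone, where 21 of 28 pairs were above 0 and the lowest was -0.56. In the 6 tacrolimus libraries alone it was 0.62, and all 28 pairs were above 0. Leaving out any single library gave medians from 0.37 to 0.53. These are descriptions over libraries that share their scaling.

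The closest pair was Hmgcs1 and Insig1 (r = 0.88), followed by Sqle with Srebf2 (0.81) and Sqle with Insig1 (0.78). Over all 12 libraries the only pairs below 0 were Fdft1 with Dhcr7 (-0.18) and Fdft1 with Lss (-0.12). With each group's mean removed these became 0.30 and 0.13, and Fdft1 was then among the highest pairs, with Hmgcs1 (0.84), Insig1 (0.81) and Sqle (0.76). The pairs below 0 were then Hmgcs1 with Lss (-0.15) and Lss with Insig1 (-0.0037), so that 26 of 28 were again above 0. The mean of the 8 standardised log2 values was highest in tacrolimus replicate 6 (1.24) and lowest in tacrolimus replicate 1 (-1.19), with the vehicle libraries between -0.35 and 0.94. Replicate 6 also had the highest mitochondrial share of its table, 15.9%, and its part in this was not tested. Without replicate 6, 22 of 28 pairs were above 0, with a median r of 0.45. Without tacrolimus replicate 1 there were also 22 of 28, with a median r of 0.37.

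**Figure D4:**
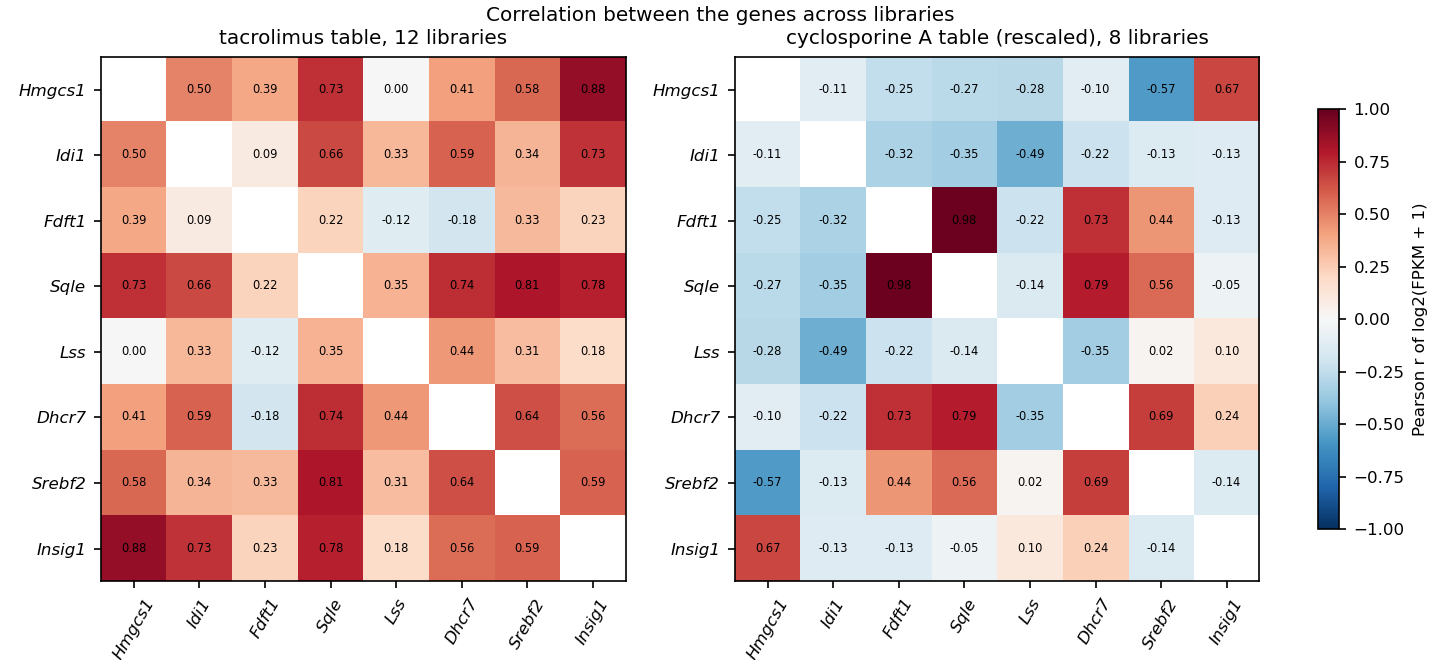
Pearson r between each pair of genes across the 12 libraries of the tacrolimus table (left) and the 8 libraries of the cyclosporine A table on rescaled FPKM (right), computed on log2(FPKM + 1), with red above and blue below 0. In the left map 26 of 28 pairs are above 0, and in the right map 10 of 28.

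Among 12880 other genes with a mean of at least 1 FPKM, the gene most like this mean was Cyp51 (r = 0.95, and 0.94 with group means removed), the lanosterol demethylase that acts just after Lss. It had 9.71, 11.5 and 13.4 FPKM in vehicle and 7.89, 9.51 and 14.3 with tacrolimus, and its highest library was again tacrolimus replicate 6. The next were Fuca2 (0.88), Zfand5 (0.87), Tuba1c (0.86) and Slbp (0.86). The synthesis genes Hsd17b7, Nsdhl and Msmo1 ranked 28, 31 and 39. Not all synthesis genes followed the mean of the 8. Fdps (0.31) and Mvk (0.19) ranked 3006 and 4338, and Lbr (-0.27) and Pmvk (-0.29) ranked 9657 and 9884. The genes of LXR signalling, efflux and oxysterol metabolism lay on both sides of 0, from Mylip, a ubiquitin ligase gene that LXR induces when sterols are high (-0.73), Abcg1 (-0.43) and Abca1 (-0.37) to Cyp27a1 (0.41), Ch25h (0.44) and Cyp7b1 (0.49).

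In the rescaled cyclosporine A table the median r of the 28 pairs was -0.13 over 8 libraries, and 10 of 28 were above 0. Within the 4 saline libraries alone the median was 0.42, with 19 of 28 above 0, and within the 4 treated libraries it was -0.26, with 10 of 28 above 0. Each of these rests on 4 libraries. The highest pairs were Fdft1 with Sqle (0.98), Dhcr7 with Sqle (0.79), with Fdft1 (0.73) and with Srebf2 (0.69), Hmgcs1 with Insig1 (0.67) and Sqle with Srebf2 (0.56). Without cyclosporine A replicate 4 the median was 0.19, with 15 of 28 above 0. That library had the lowest Fdft1, Sqle, Dhcr7 and Srebf2 values of the table and the highest mitochondrial share, 90.8%, whose part was not tested. The genes most like the mean of the 8 were Map3k11 (0.98), Fzr1 (0.98), Chpf (0.97), Mrps7 (0.97) and LOC681367 (0.97), out of 9735, and Cyp51 reached 0.38. The difference in co-variation between the tables was not tested.

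The rest of the sterol system was followed in lists of related genes. Of 15 other cholesterol synthesis genes, 0 were called with tacrolimus, against 0.303% of all genes, and 13 had a change below 0, against 50.2% of all genes, with a median log2 change of -0.07. The smallest p values were those of Hsd17b7, a 3-ketosteroid reductase of the pathway (2.45 ± 0.417 against 1.68 ± 0.662 FPKM, log2 change -0.39, adjusted p = 0.432), and Sc5d, the desaturase before Dhcr7 (24.1 ± 1.15 against 21.4 ± 2.25 FPKM, -0.17, adjusted p = 0.448). With rescaled cyclosporine A, again 0 of 15 were called and 10 were below 0, against 0.609% and 50.1% of all genes. Sc5d had 4.09 ± 0.494 FPKM with saline and 2.45 ± 0.952 with the drug (log2 change -0.60, adjusted p = 0.17).

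Of 5 genes of the SREBP machinery beyond Srebf2 and Insig1, 0 were called with either drug. Of all genes, 0.303% were called with tacrolimus and 0.609% with rescaled cyclosporine A, so 0 calls are usual for a short list. The smallest p values with tacrolimus were those of Mbtps1, the site-1 protease that cuts SREBP (log2 change 0.11, adjusted p = 0.498), and Insig2 (-0.11, adjusted p = 0.663). With cyclosporine A they were those of Srebf1, which makes SREBP-1 (-0.37, adjusted p = 0.292), and Mbtps1 (-0.10, adjusted p = 0.778). Of 10 genes of LXR signalling, efflux and oxysterol metabolism, 0 were called with either drug, against the same shares of all genes. Mylip (log2 change 0.28, adjusted p = 0.56) and the receptor gene Nr1h2 (0.11, adjusted p = 0.722) came first with tacrolimus, and Cyp7b1 (-0.32, adjusted p = 0.401) and Soat1, which esterifies cholesterol (-0.20, adjusted p = 0.502), with cyclosporine A.

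Of the uptake and trafficking genes, 0 of 8 were called with tacrolimus (0.303% of all genes were). With rescaled cyclosporine A, 0 of 7 tested were called (0.609% of all genes were). Among them, Stard4, a sterol carrier, had 5.85 ± 1.02 FPKM in DMSO/PEG and 4.92 ± 0.314 with tacrolimus (SD, log2 change -0.20, adjusted p = 0.603). Npc2, which hands cholesterol out of the lysosome, had 24.2 ± 3.36 rescaled FPKM with saline and 27.7 ± 6.14 with cyclosporine A (log2 change 0.18, adjusted p = 0.635). The difference between the drugs' changes was called for 0 of the 15 synthesis, 0 of the 5 machinery and 0 of the 10 LXR genes. It was called for 1.61% of all genes.

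Of the fatty acid synthesis genes, which are mainly targets of SREBP-1, 3 of 7 tested fell with tacrolimus, where 0.284% of all genes did. The list was chosen with earlier results of these data known, so this is not an independent comparison. Fasn (fatty acid synthase) had a lowest, median and highest FPKM of 17.8, 22.8 and 29.9 in DMSO/PEG and 7.55, 8.57 and 10.5 with tacrolimus, without overlap. Its log2 change was -1.29 (SE 0.11, adjusted p = 9.5e-05). Thrsp, a regulator of lipogenesis, had 29.4, 45.5 and 67.5 against 3.62, 5.72 and 15.4 FPKM, also without overlap (-2.52, SE 0.35, adjusted p = 0.00361). Drug and vehicle libraries did not overlap for 0.975% of all genes. Scd (stearoyl-CoA desaturase) had 6.03, 14.3 and 38.0 against 0.21, 0.467 and 7.92 (-2.97, SE 0.54, adjusted p = 0.0379), with tacrolimus replicate 3 inside the vehicle range. The call of Scd was lost on leaving out each of 9 of the 12 libraries in turn (adjusted p up to 0.107). It was also lost without the filter on low values (adjusted p = 0.0808) and with voom on recovered fragments (adjusted p = 0.0532), so that 11 of 20 other settings did not call it.

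Fat cell markers were also at lower levels with tacrolimus. Summed FPKM of 8 adipocyte markers was 88.4 to 299 in DMSO/PEG kidneys and 53.8 to 175 with tacrolimus. All 8 were below their vehicle level (50.2% of all genes were), and 0 of 8 were called (0.303% of all genes were). The sum of 5 brown adipocyte markers was 16.0 to 52.5 against 5.11 to 11.8, with 2 of 4 tested called lower (0.284% of all genes were) and none at 0 throughout. Their part in the change of the fatty acid genes was not tested. The sum of 7 adrenal cortex markers, from a gland rich in cholesterol synthesis that lies on the kidney, was 1.15 to 2.47 against 0.868 to 1.77 FPKM. In the cyclosporine A table it was at most 1.39 rescaled FPKM.

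With rescaled cyclosporine A, 1 of 7 fatty acid synthesis genes was called: Me1 (malic enzyme, a source of NADPH) fell from 40.1, 35.997, 45.2 and 41.3 FPKM with saline to 26.1, 22.3, 22.2 and 20.6 (log2 change -0.81, SE 0.11, adjusted p = 0.0227), as did 0.282% of all genes. The groups did not overlap, as for 10.9% of all genes in that comparison. The call was lost without saline replicate 1, 3 or 4 or cyclosporine A replicate 3 (adjusted p up to 0.0951), and without the filter on low values (adjusted p = 0.0530). Adipocyte sums in that table overlapped, 32.0 to 63.5 and 33.8 to 65.9 rescaled FPKM. Thrsp differed between the drugs by 2.90 on the log2 scale (SE 0.68, adjusted p = 0.0419), with 0.587, 2.90, 9.39 and 10.6 rescaled FPKM in saline and 4.08, 5.44, 4.26 and 11.3 with cyclosporine A. This call was lost in 17 of 28 other settings.

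**Figure D5:**
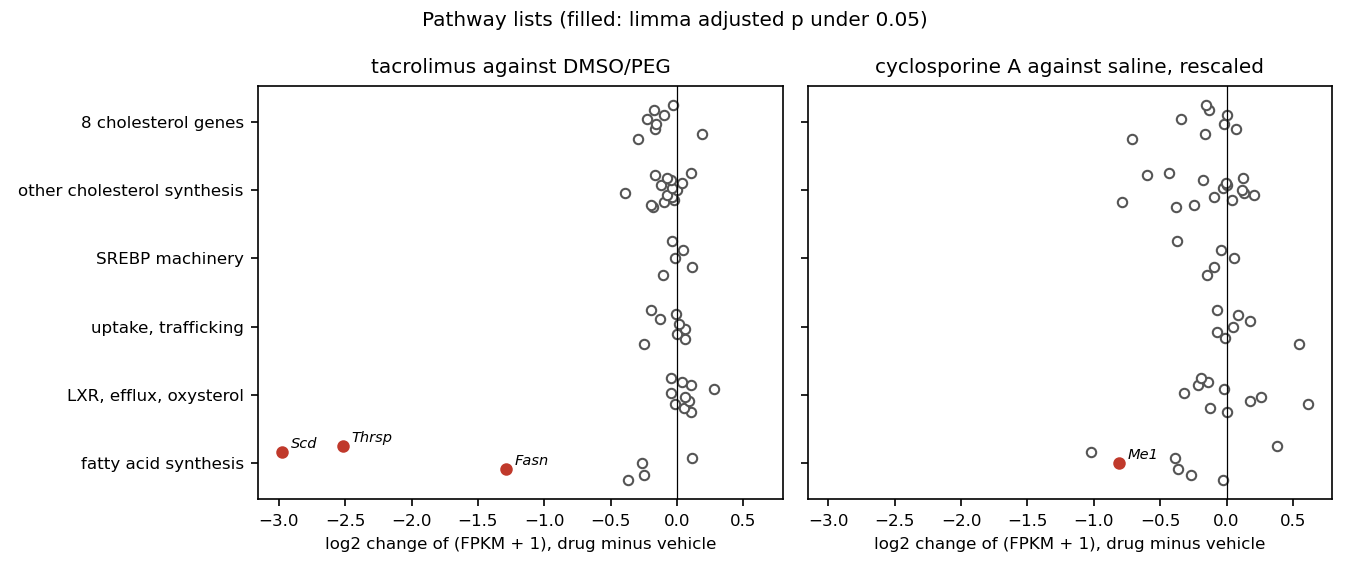
Log2 change of FPKM + 1 of each tested gene in the 8 cholesterol genes and 5 related lists, for tacrolimus (left) and rescaled cyclosporine A (right), on a shared horizontal axis, with filled red points for an adjusted p under 0.05. Filled points are Fasn, Thrsp and Scd on the left and Me1 on the right, all in fatty acid synthesis.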

How the data were processed

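Whole-kidney RNA of 20 rats was sequenced. The deposited values are FPKM, one table for each drug with its vehicle, judged from the values and gene lengths. The aligner HISAT2 and the rat build rn6 are named in the submitters' processing notes. The counting program and strand setting are not given in the sources used here. Whole fragments were recovered from the FPKM (tolerance 0.01 fragments): 100.0% of values above 0 in the tacrolimus table and 74.6% in the cyclosporine A table came out whole with the listed length, and 4441 genes there only with a shorter one. The cyclosporine A table follows total assigned fragments and the tacrolimus table median-of-ratios factors, so the former was also rescaled with such factors.

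Genes entered the tests with 10 fragments (at the median library size) in a number of libraries equal to the smaller group, and 15 in total. Tests used limma 3.58.1 under R 4.3.3 on log2 of FPKM plus a pseudocount of 1, an intensity trend in the empirical Bayes step and Benjamini-Hochberg adjustment over all genes tested. The procedure was tested on simulated data. Fold changes of low genes are understated on this scale. The difference between drugs combined both standard errors with Satterthwaite degrees of freedom. The members and gene lists were chosen with earlier results of these data known. Named list genes were those called in a comparison, up to 5 per list, or else the 2 with the smallest p, and the 5 genes most like the members. For the deposited cyclosporine A scale lists are not named. Elovl6 did not pass the filter. Values of some list genes are not reported here, though counts over lists include them. Replicates differed by a chi-square per degree of freedom of 21.4 to 184 in one table and 16.7 to 99.5 in the other, more than sampling noise, and each was kept as its own sample.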

Additional observations from a re-analysis of the deposited data

Results flagged for a closer look

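Of 32 groups of member values examined for a library far from the others (chance gives about 1 in 20), 3 held one. Tacrolimus replicate 6 stood above the other tacrolimus libraries for Hmgcs1 (17.2 FPKM) and for Sqle (14.3 FPKM). Tacrolimus replicate 1 stood below the others for Lss (3.98 FPKM). The changes with the 2 drugs differed by the test of the difference for Thrsp (2.90 on the log2 scale, adjusted p = 0.0419).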

How the results depend on the processing

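The count of called members stayed at 0 with tacrolimus and with rescaled cyclosporine A, and at 8 on deposited cyclosporine A values, under every alternative run. For the difference between the drugs it went from 0 to 8 with deposited cyclosporine A values, where Hmgcs1 (-0.80), Sqle (-0.89), Idi1 (-0.86) and Lss (-0.74) turned sign; this follows from the scaling. Small rescaled changes also turned: Lss with a pseudocount of 0.1 (-0.0063), library quality weights (-0.10) and voom on fragments (-0.098), and Idi1 with quality weights (0.0057) and nuclear scaling (0.052), and the cause was not tested. Leaving out 1 library at a time gave log2 ranges that crossed 0 for Srebf2 with tacrolimus (-0.092 to 0.0065), Hmgcs1 (-0.063 to 0.25), Idi1 (-0.070 to 0.026) and Lss (-0.061 to 0.14) with rescaled cyclosporine A, and Insig1 (-0.28 to 0.019) and Sqle (-0.020 to 0.13) for the difference.

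Replicate numbers did not pair the libraries (same-number correlations -0.15 to 0.21 for cyclosporine A, -0.15 to 0.18 for tacrolimus). With a replicate block, 0 members were called with tacrolimus, with rescaled cyclosporine A and for the difference, and 8 as deposited; calls over all genes went from 47 to 44, 82 to 6, 216 to 180 and 10911 to 10635. Me1 with rescaled cyclosporine A was not called under the block (limma adjusted p = 0.0653). Calls over all genes with rescaled cyclosporine A were 1 without the filter, 149 with quality weights, 269 with voom and 1 to 139 without 1 library; with tacrolimus, 77 with quality weights; for the difference, 135 without the filter and 27 to 267 without 1 library. Lss had the lowest counts of the 8 genes, 60 to 105 fragments in treated cyclosporine A libraries. Voom was not run for the deposited scale, since it takes fragments with size factors.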
